A study of Mus musculus with 35 samples.

Results

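Sox2 (gene ID 20674) lies at chr3:34649995-34652461 on the plus strand of mouse build GRCm38 (mm10) and is the only protein-coding gene within 150 kb to each side of itself. The H3K27ac and KLF4 peaks called in 22 ChIP-seq libraries over the gene and in that window were collected by position alone, and overlapping peaks of one mark were merged into regions. The window held 87 regions, 60 of H3K27ac and 27 of KLF4, of 265074 in all (179334 and 85740). The gene with 10 kb to each side held 19 of them, and a window 90 to 120 kb past the end of the gene, called the distal window below, held 22. Distances are given from the start of Sox2 unless another point is named, negative upstream, so that the distal window runs from 92.5 to 122.5 kb.

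The study followed mouse embryonic fibroblasts (MEFs) through reprogramming to induced pluripotency, with embryonic stem cells (ESCs) as the reference. MEFs came from mice of strain C57BL/6 x 129 and genotype OKSM Col1a1/M2rtTA ROSA26, which carry a doxycycline-driven cassette of 4 reprogramming factors (Oct4, Klf4, Sox2 and Myc) at Col1a1 and the transactivator that drives it at Rosa26. For H3K27ac there were 2 MEF libraries without doxycycline, 3 of day 3, 3 of day 6, 2 of day 9 and 2 of ESCs, and for KLF4 2 each of day 3, day 6, day 9, serum-grown ESCs and 2i-grown ESCs. Doxycycline was given at 1 µg/ml, together with 50 µg/ml of ascorbic acid, and reprogramming cells were unsorted at day 3, and were sorted for the surface marker SSEA1 at day 6 and day 9. The ESCs were the line V6.5, grown on irradiated feeder cells in medium with serum and LIF. The 2i ESCs also had 1 µM MEK inhibitor and 3 µM GSK3 inhibitor. V6.5 does not carry the cassette, whereas MEFs and reprogramming cells do, and reads from the cassette's Sox2 coding sequence cannot be told apart from reads of the gene's own exon, so values over the gene are also given without the gene body. The series describes its replicates as biological. The unsorted day 3 and sorted later samples, and the marks' batches, set limits: both MEF and both ESC H3K27ac libraries came from batch EC-DG-3458 and both day 9 libraries from batch EC-EA-3702.

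SOX2 is a SoxB1 transcription factor of pluripotent and neural progenitor cells that binds DNA beside POU5F1 (Oct4) at many pluripotency genes. Its own gene has a single exon and sits inside Sox2ot, a long noncoding RNA gene, and in ESCs its transcription depends on an enhancer cluster about 100 kb downstream known as the Sox2 control region. H3K27ac is a histone mark of active promoters and enhancers, and KLF4 is a zinc finger factor that binds GC-rich sites and is itself part of the cassette.

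The promoter is shown because KLF4 peaks lay over it at some stages and not at others. The 250 bases before the gene's start, chr3:34649745-34649994 on the plus strand, are given as in RefSeq (GRCm38.p6), with every match to a KLF motif, GGGNGNGG or its reverse CCNCNCCC, in capitals.
Sox2 promoter: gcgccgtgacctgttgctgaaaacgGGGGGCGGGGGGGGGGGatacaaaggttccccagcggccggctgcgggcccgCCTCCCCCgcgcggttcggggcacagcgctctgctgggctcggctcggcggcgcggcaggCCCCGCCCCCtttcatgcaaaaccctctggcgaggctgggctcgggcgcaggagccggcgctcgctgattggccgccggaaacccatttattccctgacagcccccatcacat
The stretch was 72% G and C. It held 6 overlapping matches on the plus strand and 3 on the minus strand, in 3 stretches at -225 to -209, -173 to -166 and -113 to -104 bases from the start. Of 32851 promoters of the same length in the table, 45.9% held the same motif, so a match is common. The octamer ATGCAAAT and the SOX motif CATTGT, searched on both strands, had no match here and were found in 1.6% and 10.7% of promoters.

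The 22 lists held between 17493 and 88347 peaks for H3K27ac and between 21129 and 34640 for KLF4. Sequencing depth is unknown, and a position without a peak is a position without a called peak, not one without signal. Within each list, the fold enrichment and q-value of a peak are the authors' deposited values. As a check of the labels, H3K27ac peaks lay within 2.5 kb of 10 of 10 fibroblast marker genes in both MEF libraries and of 4 to 6 in the ESC libraries. Of 8 pluripotent marker genes, 2 or 3 had one in MEFs and at day 3, 1 or 2 at day 6, and all 8 in both day 9 and both ESC libraries. Of 5 neural marker genes, 1 had one in MEFs, at day 3 and at day 6, 3 at day 9 and 4 in ESCs. Over all protein-coding genes, with 10 kb flanks, the share with a peak in every library of the stage also fell and rose again, at 71.7%, 58.6%, 49.2%, 69.2% and 71.7% from MEFs to ESCs. The part of neural cells in the values at Sox2 was not tested. Of 4 endoderm genes, 1 or 2 had one in MEFs, 0 or 1 at day 3, none at day 6, 0 or 1 at day 9 and 3 in the ESC libraries. Bulk libraries cannot tell fewer cells with a mark from less of the mark per cell.

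In ESCs, the H3K27ac lists carried 52 and 49 peaks in the Sox2 window. The MEF lists carried 8 and 5, the day 3 lists 2, 4 and 3, the day 6 lists 1, 1 and 4, and the day 9 lists 4 and 5. Acetylation around Sox2 was therefore called mainly in ESCs: of the 60 H3K27ac regions, 49 had peaks in ESC libraries alone, while of all H3K27ac regions of the series 26.5% did. Counting also regions with peaks at other stages, 28 of the 60 had peaks in both ESC libraries. Another 7 regions were found before the ESC stage and in no ESC library, and 27 of the 60 rested on 1 library. No list had a peak in the 62.9 kb from -73.4 to -10.5 kb, which lie within Sox2ot and hold the noncoding gene Gm42205.

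**Figure D1:**
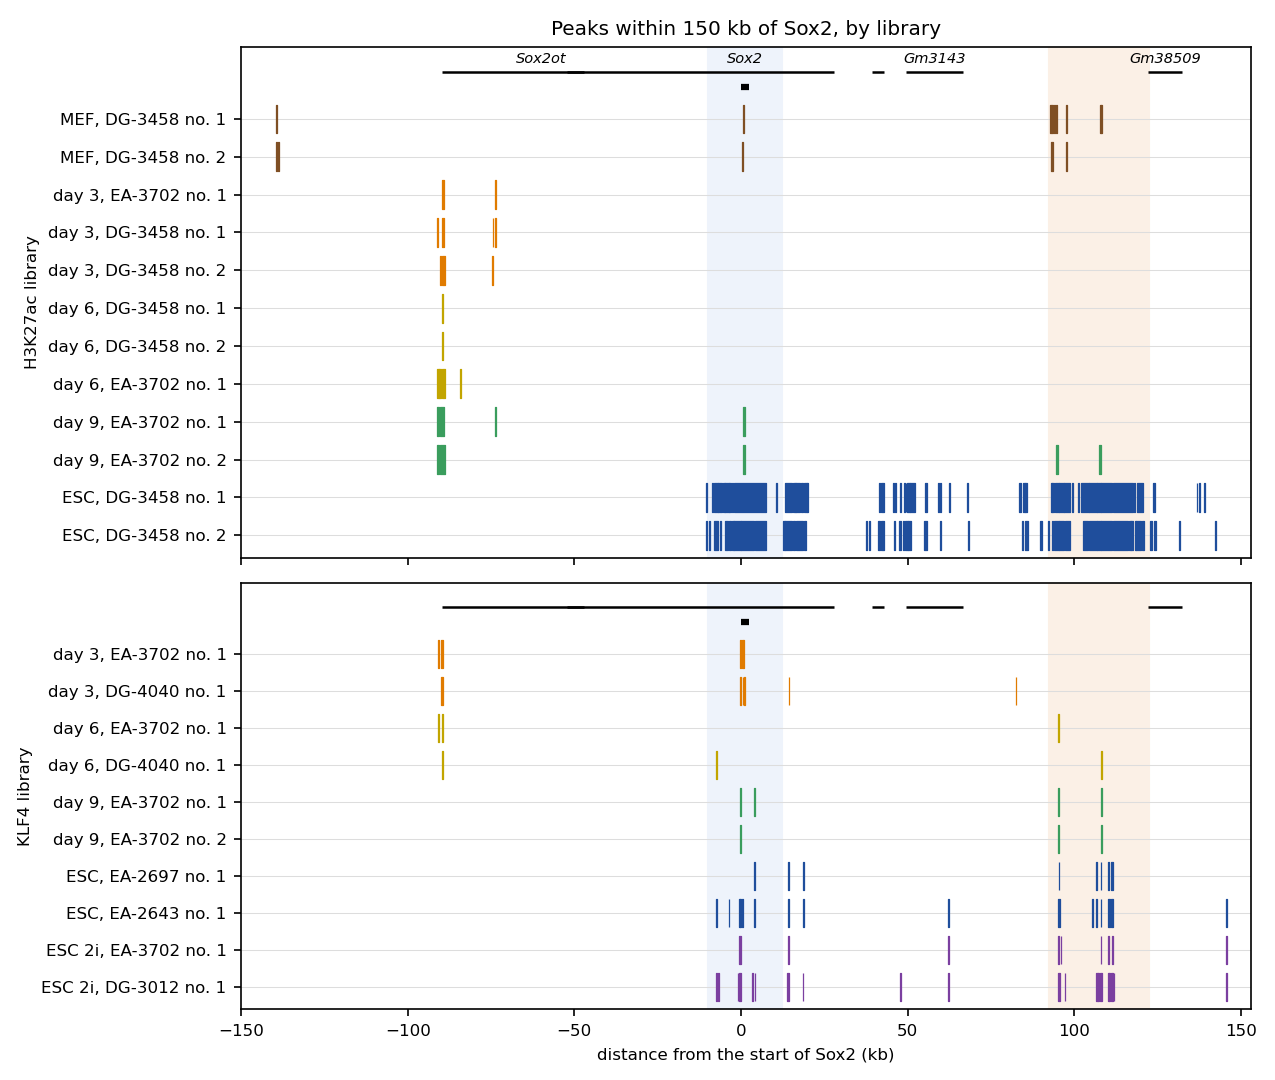
Peaks of each H3K27ac library (upper panel) and KLF4 library (lower panel), one row per library, against the distance in kb from the start of Sox2. Black lines mark genes, the blue band Sox2 with 10 kb to each side, and the orange band the distal window. The ESC rows of H3K27ac hold 52 and 49 peaks against 1 to 8 in the other rows.

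Around the gene itself, acetylation was called over most of the sequence in ESCs, at 1 peak per library in MEFs and at day 9, and not at day 3 or day 6. By deposited score, the MEF peaks ranked 65236 and 71806, in the top 74.07% and 81.28% of their lists. The day 9 peaks ranked 19838 and 26551, in the top 45.11% and 58.35%. All these ranks lay beyond the 17493 peaks of the shortest H3K27ac list, that of a day 6 library. Among 17493 top peaks per list MEFs and day 9 were therefore at 0 bp as well, and at that cut no difference of day 3 and day 6 from them remained. The cut follows a day 6 list. The day 3 lists were longer, with 41471 to 50836 peaks, so that the day 9 ranks lay within their lengths and the MEF ranks beyond them. The H3K27ac peaks within 10 kb of Sox2 covered 400 and 348 bp in the MEF libraries, 0 bp in all 3 day 3 and all 3 day 6 libraries, 825 and 793 bp at day 9, and 14492 and 13473 bp in ESCs. The groups did not overlap, apart from day 3 and day 6, which were all at 0. The means were 374 ± 36.77 bp (SD, n = 2) in MEFs, 809 ± 22.63 bp (SD, n = 2) at day 9 and 13980 ± 720.5 bp (SD, n = 2) in ESCs. Stage accounted for a share of 0.998 of the variance of the covered base pairs. In a one-sided exact permutation test over the 12 libraries, p was 7.22e-05 (adjusted p = 0.000433 over the 6 tests made, Benjamini-Hochberg). Within batch EC-DG-3458 the order of MEF, day 3, day 6 and ESC was the same, and within EC-EA-3702 the day 3 and day 6 libraries were at 0 bp and both day 9 libraries above. With stages permuted within batches, the adjusted p of the exact permutation test was 0.00476.

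The 4 MEF and day 9 peaks all lay inside the gene body, between 268 and 1361 bp from its start. Their deposited folds were 3.758 and 3.157 in MEFs and 3.849 and 3.163 at day 9. In ESCs the strongest peaks of the zone had folds of 27.66 and 29.0, and the merged region ran from -2.09 to 7.51 kb. The ESC zone was thus not confined to the gene body. With the gene body left out, every MEF, day 3, day 6 and day 9 library was at 0 bp, the share of variance was 0.998, and the exact permutation p was 0.0455 (adjusted p = 0.0545), with the ESC libraries alone above 0. The part of cassette reads in the MEF and day 9 peaks was not tested.

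Among all protein-coding genes with 10 kb flanks, 1.19% shared the H3K27ac pattern of Sox2, with peaks in both MEF, both day 9 and both ESC libraries and in no day 3 or day 6 library. In ESCs, 673 of 21631 genes had more base pairs covered than Sox2, and the median gene had 1518 bp. At day 9 the order was the reverse: 13757 genes had more than Sox2, against a median of 1664 bp.

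**Figure D2:**
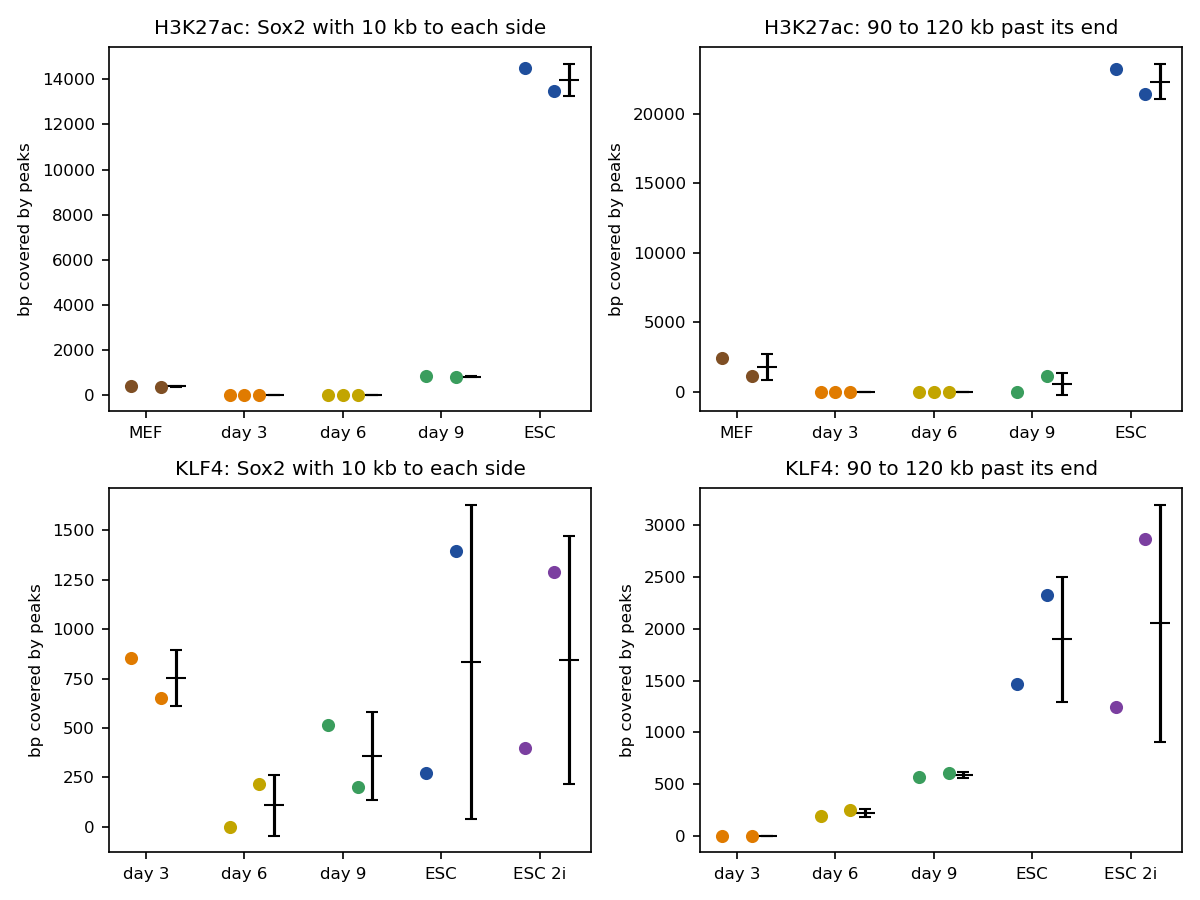
Base pairs covered by peaks in each library (coloured points) by stage, for H3K27ac (upper row) and KLF4 (lower row), over Sox2 with 10 kb to each side (left) and in the distal window (right); black bars give the mean ± SD over libraries, and each panel has its own linear axis. H3K27ac in ESCs reached 13980 bp over the gene and 22310 bp in the distal window on average, and KLF4 in the distal window went from 0 bp at day 3 to 585 bp at day 9.

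The distal window, where the Sox2 control region lies, had more base pairs under H3K27ac peaks in ESCs than the gene zone. The gene zone is shorter, at 22.5 kb, and the 2 ESC libraries covered 64.5% and 59.97% of it. In the ESC libraries 14 peaks each covered 23224 and 21396 bp, which is 77.41% and 71.32% of the 30 kb window. The best of them had folds of 28.53 and 24.31, and the highest-scoring peaks there ranked 746 and 770 by deposited score, in the top 0.9101% and 0.9479% of their lists. Of 17274 windows placed 90 to 120 kb downstream of protein-coding genes, 20 had more H3K27ac in ESCs, and the median window had 148 bp.

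MEFs also had peaks there. The 2 MEF libraries had 2438 and 1115 bp, the 3 day 3 and 3 day 6 libraries 0 bp, and the day 9 libraries 0 and 1130 bp. ESCs stood apart from every other library, whereas MEF and day 9 values overlapped. Means were 1776 ± 935.5 bp (SD, n = 2) in MEFs, 565 ± 799 bp (SD, n = 2) at day 9 and 22310 ± 1293 bp (SD, n = 2) in ESCs. The share of variance between stages was 0.996 (exact permutation over 12 libraries, one-sided p = 0.00177, adjusted p = 0.00354). Without the ESC libraries it was 0.759, with an adjusted p of 0.0778 in the exact permutation test, an alternative added after the data were seen. With stages permuted within batches the adjusted p was 0.00952 in the exact permutation test, and in EC-EA-3702 alone 1 of the 2 day 9 libraries was above 0 bp.

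Both MEF libraries had a peak at the near edge of the distal window and another farther in. The edge peak lay at 92.66 to 93.71 kb in the first MEF library with a fold of 8.87 and a −log10 q of 17.06, and at 93.02 to 93.75 kb in the second with a fold of 5.072. The other lay at about 97.6 to 98.0 kb in both, with folds of 5.175 and 5.408. The first library alone had 4 further peaks, at 93.97 to 94.21 kb (fold 2.936), 94.40 to 94.75 kb (fold 4.439) and, as a pair, 107.6 to 108.2 kb (folds 3.076 and 2.69). All 8 MEF peaks of the window and both day 9 peaks overlapped peaks of both ESC libraries. The day 9 peaks, at 94.55 to 95.22 kb and 107.5 to 108.0 kb, came from the second library alone, with folds of 2.779 and 2.798. Peaks in both MEF and both ESC libraries with none at day 3 or day 6 were found in 3.46% of windows so placed.

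Day 3 and day 6 were thus at 0 in all 6 H3K27ac libraries both over the gene and in the distal window. The day 6 lists were short over the genome as well, with 17493 to 22462 peaks: H3K27ac was called in every library of the stage at 71.7% of protein-coding genes in MEFs, 58.6% on day 3, 49.2% on day 6, 69.2% on day 9 and 71.7% in ESCs. In lists limited to 17493 top peaks, the MEF and day 9 peaks of the distal window, which ranked 22818 or lower, drop out too, and the ESC libraries alone keep peaks in either zone. With 2 libraries above 0, the exact permutation p was 0.0455 for each zone (adjusted p = 0.0545), the smallest such ties allow. The day 3 lists were longer, with 41471 to 50836 peaks. Within those lengths lay the best distal ranks of the MEF libraries, 22818 and 36530, and of the second day 9 library, 32979. The difference between the distal window and the gene zone also varied with stage, with a share of variance of 0.984 (exact permutation, one-sided p = 0.00159, adjusted p = 0.00354). The distal window had the more base pairs covered in both MEF and both ESC libraries, and the day 9 libraries went both ways, with 825 bp over the gene against 0 bp in the first and 793 against 1130 bp in the second. The call was lost without the ESC libraries (exact permutation, adjusted p = 0.0778) and with equal numbers of top peaks (0.0545), where the ESC libraries alone keep peaks.

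Between the gene zone and the distal window, H3K27ac was called in ESCs and nowhere else: 23 regions from 12.75 to 92.33 kb covered 14220 ± 308.3 bp (SD, n = 2), and the 10 other H3K27ac libraries had none. Of these regions, 12 were in both ESC libraries. The broadest was 3463 bp long, at 48.73 to 52.19 kb over one end of the noncoding gene Gm3143. Beyond the distal window, 7 regions covered 1479 ± 294.2 bp (SD, n = 2) in ESCs, and 1 of the 7 was in both libraries.

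**Figure D3:**
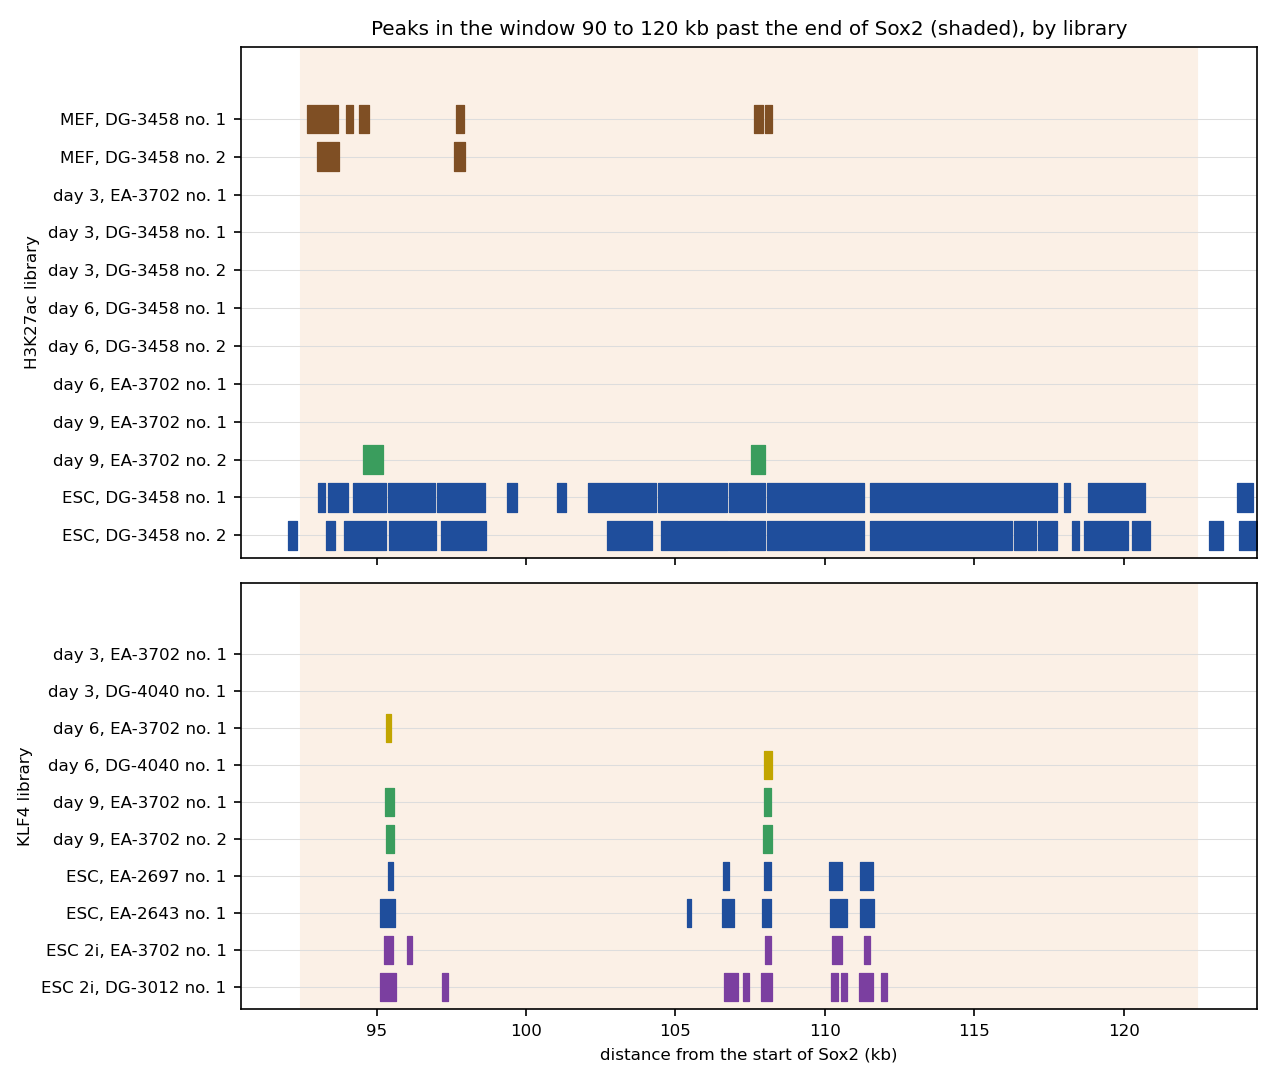
Peaks in and beside the distal window (shaded), one row per library, H3K27ac above and KLF4 below, against the distance in kb from the start of Sox2. KLF4 peaks at about 95 and 108 kb are present in every day 9 and ESC row, and no day 3 or day 6 row of H3K27ac has a peak.

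Over the gene, KLF4 was already called at day 3, and the test over all stages did not pass its threshold. The KLF4 peaks within 10 kb of Sox2 covered 854 and 652 bp at day 3, 0 and 218 bp at day 6, 515 and 203 bp at day 9, and 271 and 1397 bp in serum ESCs. Both day 3 libraries were above every day 6 and day 9 library, also within each of the 2 batches that day 3 and day 6 share, and both day 6 libraries were below both ESC libraries. The ESC values overlapped those of day 3 and day 9, and day 6 overlapped day 9. The place of day 3 rested on the gene body. Outside it, the day 3 libraries of EC-EA-3702 and EC-DG-4040 kept peaks of 271 and 169 bp. The day 6 library of EC-DG-4040 had 218 bp there. The first day 9 library had a peak of 281 bp and 210 bp of a promoter peak, and the second had 193 bp of a promoter peak. The share of variance between stages was 0.489 (exact permutation over 8 libraries, one-sided p = 0.371, adjusted p = 0.371), which does not show that the stages are alike. Without the ESC library of batch EC-EA-2697 the share was 0.931 and the adjusted p of the exact permutation test 0.019. The 2i libraries had 401 and 1289 bp, about the same range as serum ESCs.

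At the promoter, both day 3 libraries had a KLF4 peak, neither day 6 library did, both day 9 libraries did again, and so did 1 of 2 serum ESC and both 2i libraries. The merged region was chr3:34649468-34650018, and all 7 of its libraries had a peak over the 250 bases printed above. The deposited folds were 3.978 and 2.13 at day 3, 2.772 and 4.468 at day 9, 2.26 in the serum ESC library of batch EC-EA-2643, and 3.543 and 3.308 in 2i. These were weak calls: −log10 q ran from 0.0 to 3.196 and passed 2 in 1 day 3 and 1 day 9 library. All 3 motif stretches lie within the merged region, but not within every peak. The first stretch ends at 34649786. The peaks of the EC-DG-4040 day 3 library and the second day 9 library began past it, at 34649814 and 34649802. That of the first day 9 library began at 34649785.

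A second KLF4 region, chr3:34650385-34651009, lay inside the gene body, where the coding sequence of the cassette is shared. It was called in both day 3 libraries with folds of 3.372 and 3.453, and in 1 serum ESC library with a fold of 2.684. Without the gene body the KLF4 share of variance was 0.475 and the p of the exact permutation test 0.295. Another region, at 3.95 to 4.33 kb, which is past the end of the gene, was absent from all day 3 and day 6 libraries and present in 1 day 9 library (fold 3.065), both serum ESC libraries (5.78 and 4.589) and 1 of the 2i libraries (3.008).

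In the distal window, KLF4 peaks appeared stepwise. No day 3 library had one. The day 6 libraries had 1 each, of 195 and 248 bp, the day 9 libraries 565 and 605 bp, and the serum ESC libraries 1467 and 2327 bp. Every library of a later stage was above every library of the stage before it. The means were 221.5 ± 37.48 bp (SD, n = 2) at day 6, 585 ± 28.28 bp (SD, n = 2) at day 9 and 1897 ± 608.1 bp (SD, n = 2) in serum ESCs. The share of variance between stages was 0.921, with p = 0.00952 in the one-sided exact permutation test, the smallest the 2520 labelings of the libraries can give, and an adjusted p of 0.0143. The call was lost with narrower zones (exact permutation, adjusted p = 0.0686) and with 2i as a further stage (0.0952). With equal numbers of top peaks the share and the exact permutation p were the same, 0.921 and 0.00952, and the adjusted p was 0.0545 because the H3K27ac tests adjusted with it were at 0.0455. The 2i libraries had 1246 and 2865 bp, a range that holds both serum values.

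Day 3 and day 6 each had 1 library of batch EC-EA-3702 and 1 of EC-DG-4040. In EC-EA-3702 the distal window held 0 bp at day 3, 195 bp at day 6 and 565 and 605 bp at day 9. In EC-DG-4040 it held 0 bp and 248 bp. The direction was therefore the same in both batches. With stages permuted within batches, the exact permutation p was 0.0833 (adjusted p = 0.125), the smallest that the 24 labelings can give, so that this alternative could not pass 0.05. The serum ESC libraries came from other batches, so their step above day 9 and their batches cannot be told apart. In EC-EA-3702, the 2i library stood at 1246 bp, above both day 9 libraries of that batch.

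The 2 day 6 peaks were at different places, and both places were occupied in all later libraries. The nearer region, chr3:34745110-34745628 (95.12 to 95.63 kb), was called in the day 6 library of batch EC-EA-3702 with a fold of 4.158. Its folds were 6.694 and 7.514 at day 9, 5.78 and 4.787 in serum ESCs, and 3.69 and 6.608 in 2i. The farther region, chr3:34757862-34758241 (107.87 to 108.25 kb), was called in the day 6 library of batch EC-DG-4040 with a fold of 3.542. Its folds were 4.506 and 6.302 at day 9, 7.372 and 5.582 in serum ESCs, and 4.694 and 5.929 in 2i. Each was thus found in 7 of 10 KLF4 libraries and in no day 3 library, with a −log10 q of at least 2.538 wherever the nearer was called and at least 3.003 for the farther.

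Among windows placed alike, 0.88% showed the KLF4 pattern of no day 3 library, 1 or more day 6 libraries, both day 9 and both serum ESC libraries. Of all KLF4 regions, 1.56% were called in no day 3 library and in both day 9 and both serum ESC libraries, and the 2 just described are the 2 of 27 in the Sox2 window. KLF4 regions called in ESCs alone made up 16 of the 27, against 32.4% of all KLF4 regions.

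In ESCs, further KLF4 regions joined these. The regions at 110.15 to 110.75 kb and 111.15 to 111.63 kb were each found in both serum and both 2i libraries and in none before, with serum folds of 3.688 and 3.194 for the first and 5.167 and 4.816 for the second. In 2i the second had folds of 2.589 and 2.162 with −log10 q of 0.0 and 0.1143, so it barely entered those lists. A region at 106.57 to 107.10 kb was in both serum and 1 of the 2i libraries. The 5 other KLF4 regions of the distal window rested on 1 ESC library each.

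**Figure D4:**
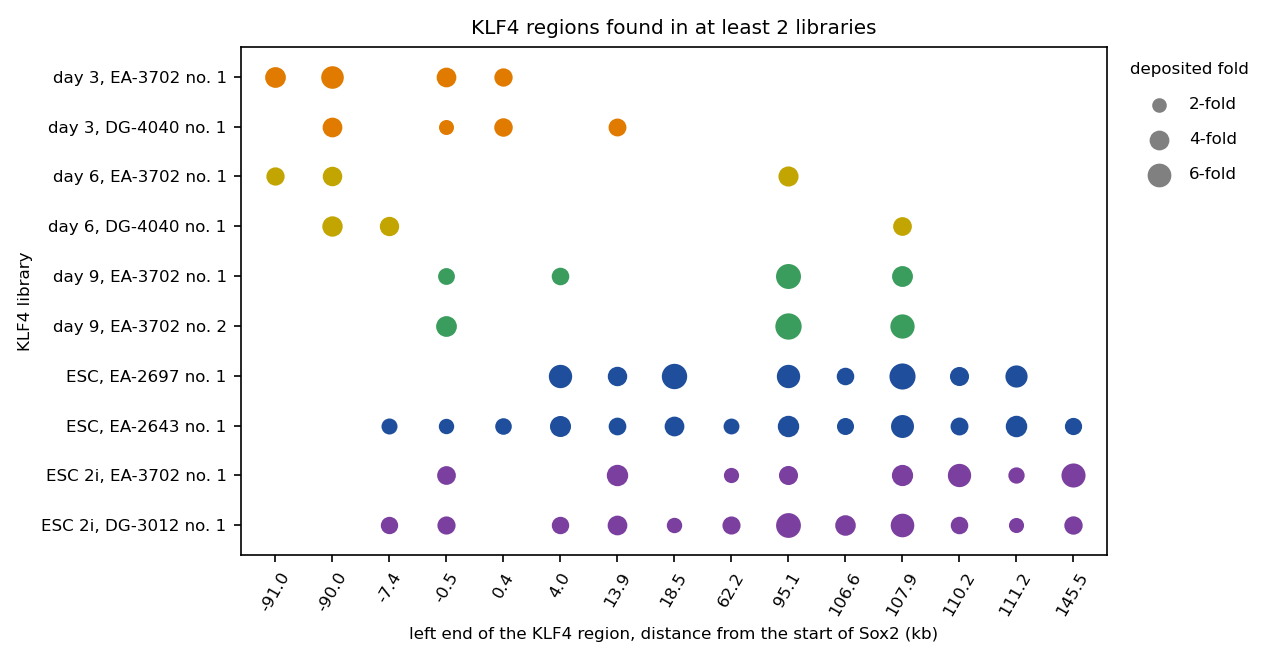
KLF4 regions of the Sox2 window that were found in at least 2 libraries (columns, ordered by the distance in kb of their left end from the start of Sox2), by library (rows). The area of each dot is proportional to the highest deposited fold of the library's peaks in that region. The columns at 95.1 and 107.9 kb each have a dot in 1 of the 2 day 6 rows and in every day 9 and ESC row, and the column at -90.0 kb is filled at day 3 and day 6 alone.

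The difference between the distal window and the gene zone in KLF4 varied with stage, with a share of variance of 0.962 (exact permutation, one-sided p = 0.019, adjusted p = 0.0229). In numbers of peaks the share was 0.692 and the call was lost (exact permutation, adjusted p = 0.171). With equal numbers of top peaks the share was 0.925 and the exact permutation p 0.0381, with an adjusted p of 0.0545 set by the H3K27ac tests adjusted with it. Permuted within batches, the adjusted p of the exact permutation test was 0.167, in a design that cannot pass the threshold. At day 3 the gene zone had peaks and the distal window none in both libraries, and at day 9 and in serum ESCs the distal window had the more base pairs covered in all 4 libraries. The zones differ in length, 22.5 kb for the gene zone and 30 kb for the distal window. As a share of length, the first day 9 library went the other way, with 2.292% of the gene zone and 1.883% of the distal window covered. At day 6, EC-EA-3702 had KLF4 in the distal window alone, and EC-DG-4040 had 218 bp (0.9703%) in the gene zone and 248 bp (0.8267%) in the distal window. In serum ESCs, 64 of 17274 windows placed alike had more KLF4 than the distal window of Sox2, and at day 9 2080 had more.

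At day 9, H3K27ac near the distal KLF4 sites was called in 1 of 2 libraries. Both KLF4 regions were called in both day 9 KLF4 libraries, while the nearest peak of the first day 9 H3K27ac library was 94.0 kb away from the nearer one. In the second, the H3K27ac peak ended 58 and 81 bp short of the 2 libraries' KLF4 peaks at the nearer site, and shared 26 and 53 bp with them at the farther. Both regions overlapped H3K27ac in both ESC libraries. Of the 1336 KLF4 regions of the series gained by day 9 and kept in ESCs, 59.1% overlapped H3K27ac in both day 9 libraries, and 19.1% did so in both ESC but fewer than both day 9 libraries, as these 2 did. The KLF4 regions at 110.15 and 111.15 kb overlapped H3K27ac in the ESC libraries alone.

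Elsewhere in the window, KLF4 was found in both serum and both 2i ESC libraries at 13.88 to 14.54 kb, and also in 1 day 3 library. At 18.47 to 18.80 kb it was in both serum libraries, with folds of 6.934 and 3.993, and in 1 of the 2i libraries with a fold of 2.267. A region at 62.20 to 62.45 kb, over Gm3143, was in 1 serum and both 2i libraries, with folds from 2.205 to 3.284. At the far end, a region at 145.48 to 145.83 kb was in 1 serum library with a fold of 2.933 and in both 2i libraries with folds of 6.195 and 3.394. No H3K27ac peak of any of the 12 libraries overlapped it.

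Upstream, at the left end of Sox2ot, H3K27ac was called throughout reprogramming and neither before nor in ESCs. The region, chr3:34559487-34561256, spans 1770 bp from -90.51 to -88.74 kb. The strongest peaks in it had folds of 7.413, 5.655 and 8.411 at day 3, 3.377, 4.904 and 5.668 at day 6, and 5.988 and 8.499 at day 9. It had a peak in all 8 libraries of cells given doxycycline and in none of the 2 MEF and 2 ESC libraries, a pattern held by 0.0948% of H3K27ac regions in the series and by 1 of the 60 here.

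KLF4 overlapped the same place early and then was no longer called. The KLF4 region chr3:34560016-34560667 was present in both day 3 libraries with folds of 5.382 and 3.993, and in both day 6 libraries with folds of 3.89 and 4.284. No day 9, serum ESC or 2i library had a peak there. It is 1 of the 27 KLF4 regions here, and 0.589% of all KLF4 regions share that pattern. Beside it, a region at -90.96 to -90.48 kb was called in 1 day 3 and 1 day 6 library, both of batch EC-EA-3702. At day 9 the site thus had H3K27ac in both libraries and KLF4 in neither.

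Smaller H3K27ac regions of the same stretch lay at -91.31 to -90.67 kb, in 1 day 3, 1 day 6 and both day 9 libraries, and at -73.91 to -73.43 kb, in 2 day 3 libraries and 1 day 9 library. At -139.69 to -139.18 kb, both MEF libraries had a peak, with folds of 4.238 and 3.886, and no other library did. None of these 3 regions had a peak in ESCs.

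The other genes of the pluripotency list were set beside Sox2 as a description. Of 20 genes, H3K27ac lay within 10 kb in all libraries of the stage at 14 in MEFs, 12 on day 3, 8 on day 6, 19 on day 9 and 20 in ESCs. The shares over all protein-coding genes were 71.7%, 58.6%, 49.2%, 69.2% and 71.7% in the same order, so the list lay near or below them until day 6. None of the 20 had the pattern of Sox2. KLF4 was called in both libraries at 13 of the 20 on day 3, 15 on day 6, 16 on day 9 and 20 in serum ESCs. The same was true of 50.3% of protein-coding genes on day 3, 47.9% on day 6, 51.7% on day 9 and 48.9% in serum ESCs. Tdgf1, which encodes a co-receptor of Nodal signalling, was the gene of the list with the same KLF4 counts by stage as Sox2. Of 6 other Sox genes, 2 had H3K27ac in all libraries in MEFs, at day 3 and at day 6, 3 at day 9 and 6 in ESCs, to be read against the same shares over all genes. Sox3, a close relative of Sox2, had it in ESCs alone, and Sox1, the remaining SoxB1 gene, at day 9 and in ESCs.

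Over the 22 libraries of both marks, the genes whose covered base pairs moved most like those of the Sox2 gene zone were Alpk3 (r = 0.94 on the log2 scale), Syndig1 (0.922), Aanat (0.919), Gpa33 (0.919) and Fam81a (0.909), of 18774 genes compared. For the distal window, the windows most alike were those downstream of Adipor1 (0.926), Irf5 (0.925), Tmem8b (0.922), Sppl3 (0.918) and Med12 (0.917), of 13534. These are descriptions over libraries that share list lengths and antibodies.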

How the data were processed

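H3K27ac (12 libraries) and KLF4 (10 libraries) were measured by single-end ChIP-seq. The 13 input libraries were not used here. Per the submitters' processing notes, cutadapt 1.8.1, Bowtie2 2.2.5, deepTools 2.3.6, MACS2 2.1.1 and build mm10 were used; the settings and the control are not given in the sources used here. The authors deposited 1 peak list per library, and each peak has a deposited score, a ratio of enrichment (the fold), and its p and q written as −log10. Folds and q-values describe peaks, and the score ranks them within a list. Labels number the antibodies' catalogue entries consecutively across samples, while the protocol names 1 antibody per mark.

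Peaks were merged per mark over all libraries of that mark where they shared at least 1 bp. In each library the base pairs covered by peaks were summed over Sox2 with 10 kb to each side and over the window 90 to 120 kb past its end. Stages were compared by the share of the variance of these base pairs that lies between stages, with exact permutation of the libraries over stages. This was done for both zones, for their difference (distal minus gene, in base pairs) and for both marks (6 tests). Each test is one-sided, towards a larger share, and p-values were adjusted by Benjamini-Hochberg over the 6. There are 1663200 labelings for H3K27ac (smallest possible p 7.22e-06) and 2520 for KLF4 (serum ESCs; 2i is an alternative). The threshold was an adjusted p of 0.05.

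Genes came from RefSeq (GRCm38.p6). The named genes are Sox2, the listed pluripotency and Sox genes, and the 5 genes or windows with the highest Pearson correlation to those of Sox2 over the 22 libraries. That correlation was taken on log2(covered bp + 100). The members and lists were chosen with earlier results of these data known. Replicate lists shared at most 15 identical intervals. The steps were tested on simulated data. Python 3.11.15, pandas 2.3.3, numpy 2.4.6 and matplotlib 3.10.9 were used.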

Additional observations from a re-analysis of the deposited data

How the results depend on the processing

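Of 118 alternative values for the 6 tests, 98 kept their side of the threshold, 19 no longer passed it and 1 newly passed it. With each list limited to the same number of top peaks (17493 for H3K27ac, 21129 for KLF4) the shares of variance were 0.995 for H3K27ac over the gene, 0.994 in the distal window and 0.993 for their difference, and for KLF4 0.921 in the distal window and 0.925 for the difference (exact permutation, adjusted p = 0.0545 for each). There the ESC libraries alone keep H3K27ac peaks, which sets those exact permutation p-values at 0.0455, and through the joint adjustment the KLF4 values, whose own p were 0.00952 and 0.0381. In numbers of peaks, the KLF4 difference had a share of 0.692 (exact permutation, adjusted p = 0.171), and with narrower zones KLF4 in the distal window had 0.951 (adjusted p = 0.0686). Without the gene body, H3K27ac over the gene had 0.998 (exact permutation, adjusted p = 0.0545). Within batches, KLF4 had 0.921 in the distal window (exact permutation, adjusted p = 0.125) and 0.962 for the difference (adjusted p = 0.167), where the 24 labelings that remain cannot give a p under 0.0833, and with 2i added 0.814 in the distal window (adjusted p = 0.0952). Without ESCs, H3K27ac had 0.759 in the distal window and 0.703 for the difference (exact permutation, adjusted p = 0.0778 for both). Leaving out 1 library at a time gave shares from 0.372 to 0.931 for KLF4 over the gene, 0.911 to 0.999 in the distal window and 0.951 to 0.98 for their difference, and for H3K27ac from 0.998 to 1.0, 0.996 to 0.997 and 0.975 to 0.991; the call changed for KLF4 over the gene alone, without the ESC library of batch EC-EA-2697.

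With the replicate block (the numbers 1 and 2 of batch EC-DG-3458, 576 labelings), the H3K27ac shares were 0.998, 0.996 and 0.988 (exact permutation, p and adjusted p = 0.0833 for each), the smallest possible with day 3 and day 6 all at 0 bp, the same values being found with the day 6 numbers exchanged, as the peak names of those lists carry each other's number. The libraries share only a number: the deviations of same-numbered libraries correlated across genes between -0.002 and 0.036 in 6 pairs of stages. For KLF4 no such block could be made by number, since its groups share fewer than 2 replicate numbers; its day 3 and day 6 libraries pair by batch, which the permutation within batches uses. Without counts or depths, a weak site and an uncalled one could not be told apart.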
